A study of Mus musculus with 4 samples.

Results

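The genes described here encode ligands and receptors of the vascular endothelial growth factor (VEGF) and platelet-derived growth factor (PDGF) systems. They were followed in mouse bone marrow cells cultured towards osteoclasts, the multinucleated cells that resorb bone. The 10 genes were taken by name from the platform annotation: the ligand genes Vegfa, Vegfb, Vegfc, Pdgfa, Pdgfb and Pdgfc and the receptor genes Kdr, Flt1, Pdgfra and Pdgfrb, out of 18193 genes with a single symbol. They are read by 22 of the array's probe sets, each a group of short probes against 1 transcript region. The donors were female C57Bl/6J mice aged 12 weeks, and neither their number nor whether the samples share a culture is stated in the labels. Day 1 was the day the marrow was extracted. Day 4 followed 3 days of culture with vitamin D3 (10 nM) in 10% serum, and by days 5 and 7 the cultures also held M-CSF (20 ng/ml) and RANKL (40 ng/ml). Day 4 thus had vitamin D3 but neither cytokine, and no array of days 5 or 7 lacked the cytokines, so their effect and that of time in culture cannot be told apart. No cultured array lacked vitamin D3. In comparisons with fresh marrow, the effects of vitamin D3, serum and time in culture cannot be told apart either. Each day is 1 Affymetrix array with no replicate, so there is no test, no SD and no p-value. Differences of at least 2-fold are called higher or lower as a threshold of size.

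All 4 samples carry the label of a primary osteoclast, including fresh marrow. On day 1 the osteoclast genes Dcstamp, Ocstamp and Oscar had signals of 24.7, 16.5 and 13.8, under the floor of 32.4 that is the median of all signals, and Calcr was under it on days 1 and 4. The other 11 of 15 osteoclast markers were above the floor in fresh marrow, among them Acp5 (2604), Ctsk (568) and Nfatc1 (589), genes that other marrow cells can also express. All 15 were above it on days 5 and 7. The share of probe sets above the floor ranged from 46.6% on day 7 to 52.6% on day 1. Spiked control probe sets (18) had an SD between 0.07 and 0.17 on the log2 scale across the 5 comparisons. Differences between probe sets of 1 gene had a pooled SD from 0.26 (day 7 over day 5) to 0.53 (day 7 over day 1). Neither number measures the spread between cultures. Signals of different genes are not compared, since probe sets differ in brightness.

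As background, VEGF ligands are secreted proteins that bind receptor tyrosine kinases, classically on endothelial cells, and drive the growth of blood and lymph vessels. PDGF ligands are their structural relatives, which bind PDGF receptors on mesenchymal and perivascular cells and stimulate their growth and migration. In bone, osteoclast precursors are a known source of PDGF-BB, which acts on vessels and on bone-forming cells, and VEGF-A supports the entry of osteoclasts into growing bone.

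The promoters of 4 ligand genes with different courses over the culture are shown. In the RefSeq promoter table (GRCm38.p6), 8 of the 10 genes had a window, and these 4 were those whose 250 bases before the start site lay wholly outside the annotated gene. Capitals mark the GC box GGGCGG, read on either strand (CCGCCC where it lies on the other one), a sequence bound by SP1-type factors. Each runs 5′ to 3′ in the direction of the gene and ends at the base before the start site.

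Vegfa (chr17:46032378-46032627, minus strand): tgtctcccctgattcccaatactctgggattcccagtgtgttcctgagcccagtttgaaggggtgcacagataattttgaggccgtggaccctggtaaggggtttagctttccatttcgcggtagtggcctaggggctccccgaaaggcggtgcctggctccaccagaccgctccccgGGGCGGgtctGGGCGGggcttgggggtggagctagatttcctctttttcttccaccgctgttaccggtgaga

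Vegfb (chr19:6987652-6987901, minus strand): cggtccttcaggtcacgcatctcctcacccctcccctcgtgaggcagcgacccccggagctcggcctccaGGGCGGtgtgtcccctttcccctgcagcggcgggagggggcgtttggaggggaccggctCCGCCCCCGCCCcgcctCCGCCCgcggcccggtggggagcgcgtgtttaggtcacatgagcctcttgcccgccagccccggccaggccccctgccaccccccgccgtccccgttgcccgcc

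Vegfc (chr8:54077282-54077531, plus strand): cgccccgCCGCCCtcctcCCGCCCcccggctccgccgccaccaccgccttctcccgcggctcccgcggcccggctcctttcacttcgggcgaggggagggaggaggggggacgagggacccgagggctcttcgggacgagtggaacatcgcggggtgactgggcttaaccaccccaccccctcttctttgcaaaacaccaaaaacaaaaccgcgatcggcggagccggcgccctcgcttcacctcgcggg

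Pdgfc (chr3:81036166-81036415, plus strand): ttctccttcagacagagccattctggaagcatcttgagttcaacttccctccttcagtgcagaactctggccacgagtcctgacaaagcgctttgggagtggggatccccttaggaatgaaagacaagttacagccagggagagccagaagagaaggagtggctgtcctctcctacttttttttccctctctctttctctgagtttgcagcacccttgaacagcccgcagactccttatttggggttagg

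The Vegfb stretch held 4 GC boxes, those of Vegfa and Vegfc 2 each, and that of Pdgfc none. Of all 32851 windows of this length, 32.7% held at least 1. The Vegfb stretch also held the EGR1 sequence GCGGGGGCG, overlapping 2 of its GC boxes and present in 2.57% of windows. The hypoxia core ACGTG (16.6% of windows), the AP-1 sequence TGANTCA (6.75%) and the TATA sequence TATAAA (12.4%), each sought on both strands, were in none of the 4 stretches. A further Vegfa window, inside the annotated gene, held ACGTG 1 time. Of the bases, 76.4% were G or C for Vegfb, 71.6% for Vegfc, 59.2% for Vegfa and 50.8% for Pdgfc, beside a median of 52.4% over all windows. These are descriptions of the letters in these windows only.

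Over the whole course the ligand and receptor genes followed different patterns. Vegfc, Pdgfa, Pdgfra and Pdgfrb were many-fold higher from day 4 on and partly lower again on day 7. For Pdgfra this rests on 1 of its 3 probe sets, the others being dim. Pdgfb was modestly higher on day 4, and Pdgfc was higher on day 4 alone. Vegfa was lower by day 7, Vegfb was higher by day 7, Kdr stayed within 2-fold, and Flt1 was never above the floor. Of the 22 probe sets, 14 were above the floor on all 4 arrays, 4 on some arrays and 4, those of Flt1, on none. In a bulk culture, fewer cells of a type and less RNA per cell cannot be told apart.

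Vegfa encodes VEGF-A, the main inducer of blood vessel growth and a ligand of the receptors encoded by Kdr and Flt1. Its brighter probe set had signals of 450.2 on day 1, 715 on day 4, 378 on day 5 and 178 by day 7. The highest was day 4, cultured with vitamin D3 and serum but neither cytokine, and the lowest the last day with M-CSF and RANKL. Day 7 was 4.01-fold lower than day 4, 2.12-fold lower than day 5 and 2.52-fold lower than day 1. The log2 differences at the earlier steps, 0.67 for day 4 over day 1 and -0.92 for day 5 over day 4, stayed under 2-fold. The second Vegfa probe set read 107, 104, 70.4 and 42.4 in order of days, again lowest on day 7. It was 2.46-fold lower on day 7 than on day 4 and 2.52-fold lower than on day 1, and its day 7 over day 5 difference of -0.73 missed 2-fold. For Vegfa the step from day 5 to day 7 was also under 2-fold with quantile normalization (-0.83), with median scaling (-0.90) and with the mean of both probe sets (-0.91), whereas the comparisons with days 4 and 1 were past it under all 3.

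Vegfb encodes VEGF-B, a ligand of the receptor encoded by Flt1 with little activity in vessel growth. Its single probe set read 168 on day 1, 282 on day 4, 276 on day 5 and 450.4 by day 7. It was the one ligand gene of the 6 with its highest signal on day 7. Day 7 was 2.68-fold higher than day 1, and no single step reached 2-fold, with log2 differences of 0.75, -0.03 and 0.71. Set beside Vegfa, the day 7 over day 1 difference on the log2 scale was 1.42 for Vegfb and -1.33 for Vegfa.

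Vegfc encodes VEGF-C, which drives lymphatic vessel growth mainly through the receptor encoded by Flt4. The probe set that stands for it read 41.4 on day 1, 307 on day 4, 423 on day 5 and 227 by day 7. The 3 later arrays were thus all well above fresh marrow, with the peak on day 5. Day 4 was 7.41-fold and day 7 5.48-fold higher than day 1. The other probe sets of Vegfc were under the floor on day 1, at 22.1 and 23.5, and read 271 and 287 on day 4, 317 and 394 on day 5, and 162 and 204 on day 7. Their day 4 signals were higher by at least 8.37-fold for the one and at least 8.83-fold for the other. All 3 probe sets were lower on day 7 than on day 5, by log2 differences between -0.97 and -0.90, just under 2-fold.

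Among the VEGF receptors, Kdr encodes VEGFR2, the main signalling receptor of endothelial cells. Its single probe set read 161 on day 1, 109.8 on day 4, 95.6 on day 5 and 89.4 by day 7. Fresh marrow was highest, and the whole range was 1.80-fold, under the threshold. The small day 7 over day 5 difference of -0.10 turned to 0.19 with quantile normalization and 0.08 with median scaling. Flt1 encodes VEGFR1, a receptor of VEGF-A, VEGF-B and placental growth factor that is also made in a soluble form. Its 4 probe sets had signals from 2.18 to 27.5 over all arrays, below the floor throughout, so no order of days was read. This is a statement on these probe sets at this floor and does not show that the transcript was absent.

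**Figure D1:**
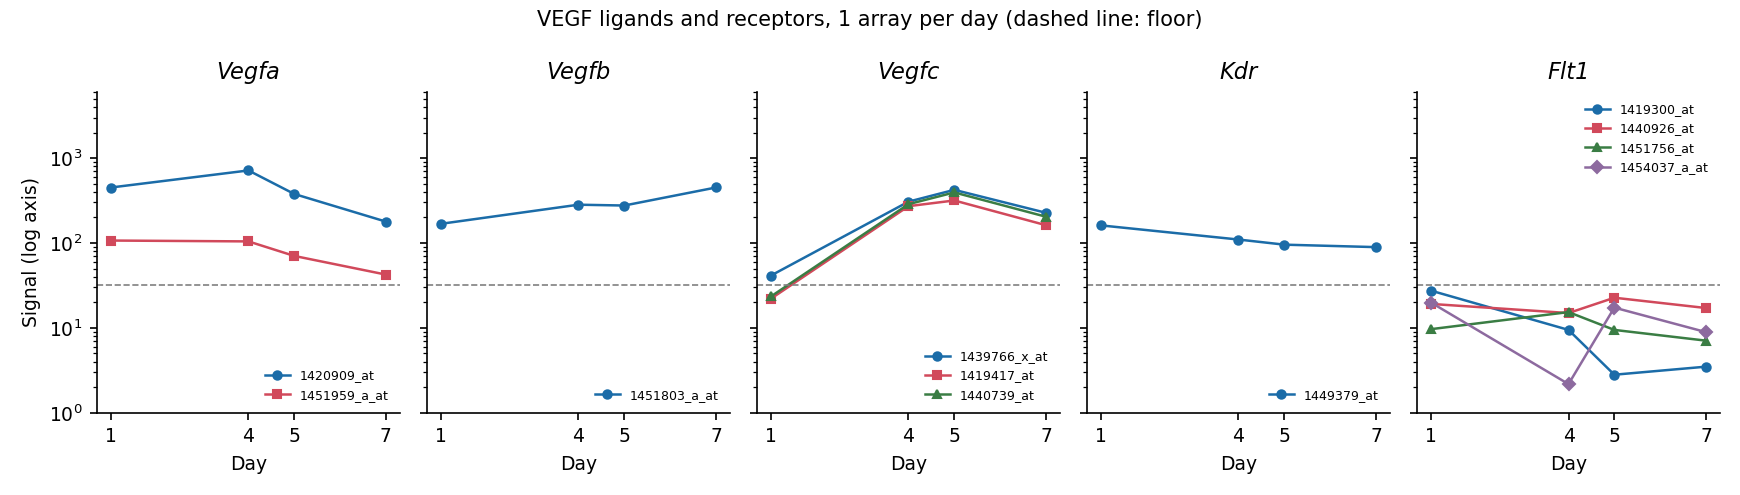
Signal of each probe set (vertical log axis, array signal units) by day of culture (horizontal axis, days) for the VEGF ligand and receptor genes, with 1 array per day and a dashed line at the floor of 32.4. Vegfa is lowest on day 7, Vegfb highest on day 7, Vegfc highest on day 5, and the 4 Flt1 probe sets stay under the floor.

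Pdgfa encodes the A chain of PDGF, whose dimer binds the receptor encoded by Pdgfra. Its brighter probe set read 525 on day 1, 2969.6 on day 4, 2536 on day 5 and 1459 by day 7, and the other 350 on day 1, 1924 on day 4, 1804 on day 5 and 1120.5 by day 7. Both were highest on day 4 and lowest in fresh marrow. Day 4 was 5.65-fold higher than day 1 by the brighter probe set and 2.46 higher on the log2 scale by the other, and day 7 was still 2.78-fold and 3.21-fold higher. Between days 4 and 7 the first was 2.04-fold lower and the second 1.72-fold lower. That call rests on the brighter probe set and was under 2-fold after median scaling (-0.86) and with the mean of both probe sets (-0.90).

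Pdgfb encodes the B chain, which binds the receptors encoded by both Pdgfra and Pdgfrb. The probe set standing for it read 196 on day 1, 475 on day 4, 429 on day 5 and 333 by day 7, and a dimmer one 48.7, 109.4, 81.4 and 60.9. Day 4 was highest by both, 2.42-fold and 2.25-fold over day 1. From there the log2 difference to day 5 was -0.15 and -0.43, and from day 5 to day 7 -0.37 and -0.42, all under 2-fold. Day 7 differed from day 1 by 0.76 and 0.32 on the log2 scale. Pdgfb was thus already higher on day 4, the array without M-CSF and RANKL, and had no further 2-fold step on days 5 and 7. The part of the cytokines in its level was not tested.

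Pdgfc encodes PDGF-C, a ligand secreted in latent form and activated by proteolytic cleavage. Its probe sets read 123 and 132 on day 1, 333 and 376 on day 4, 119 and 127 on day 5, and 103 and 73.2 on day 7. Only the array of day 4 stood apart. It was 2.71-fold and 2.84-fold higher than day 1, and day 5 was then 2.79-fold and 2.96-fold lower than day 4. Day 7 was 3.22-fold and 5.14-fold lower than day 4. The step to day 5 was the single call of 2-fold among the 9 measurable genes over the first interval with cytokines. On day 7 over day 1 the log2 difference was -0.25 for the probe set standing for Pdgfc, and it turned to 0.16 with quantile normalization. Its day 7 over day 5 difference of -0.21 likewise turned to 0.08.

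Pdgfra encodes PDGF receptor alpha, widely used as a marker of mesenchymal stromal cells. The probe set standing for it read 42.4 on day 1, 638 on day 4, 647 on day 5 and 263 by day 7. Days 4 and 5 differed by 0.02 on the log2 scale, and fresh marrow was close to the floor. Day 4 was 15.0-fold higher than day 1, and day 7 was 2.46-fold lower than day 5 but 6.19-fold higher than day 1. The other probe sets of Pdgfra were dim, at 62.2 and 44.4 on day 4, and under the floor on day 1, at 17.1 and 10.5. They read 78.6 and 51.1 on day 5, and 44.2 and 30.6 on day 7. With the floor in place they gave at least 1.92-fold and at least 1.37-fold for day 4 over day 1. For day 7 over day 1 the first gave at least 1.36-fold, and the second was under the floor on both days. Averaging the probe sets put the later steps under 2-fold, at -0.93 for day 7 over day 5 and -0.74 for day 7 over day 4.

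Pdgfrb encodes PDGF receptor beta, which marks pericytes and other mesenchymal cells. Its signals were 205 on day 1, 1875 on day 4, 2936 on day 5 and 1126 by day 7, and those of its second probe set 35.4, 290.1, 423 and 119.99. Both peaked on day 5. Day 4 was 9.15-fold and 8.20-fold higher than day 1, and day 7 was 2.61-fold and 3.53-fold lower than day 5. Day 7 was still above fresh marrow, by 2.46 and 1.76 on the log2 scale. Day 7 over day 4 was -0.74 for the brighter probe set and -1.27 for the other, so that this call differs between them.

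**Figure D2:**
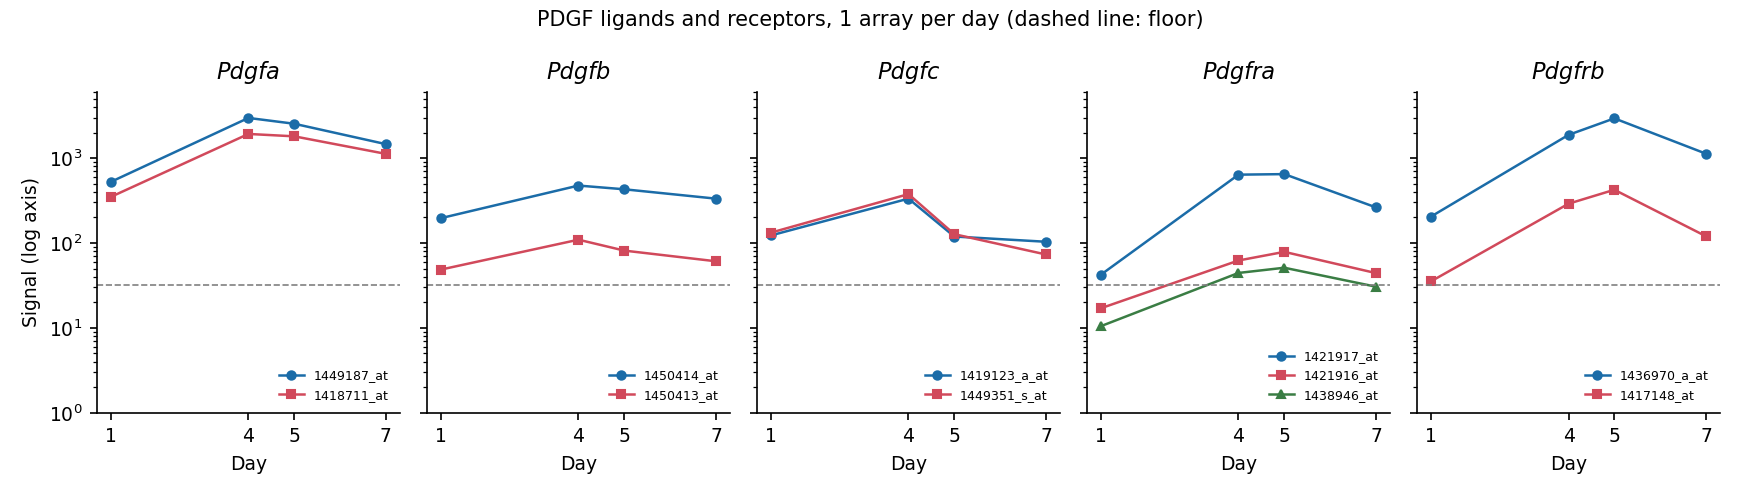
Signal of each probe set (vertical log axis, array signal units) by day of culture (horizontal axis, days) for the PDGF ligand and receptor genes, with 1 array per day and a dashed line at the floor of 32.4. Pdgfa, Pdgfra and Pdgfrb are lowest on day 1 and lower on day 7 than on day 5, while Pdgfc is high on day 4 alone.

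Counted over the genes, 9 of the 10 exceeded the floor on some array, and Flt1 did not. On day 4 over day 1, 6 of these 9 were at least 2-fold higher and 0 were lower, where 9.66% of 12438 genes were higher and 8.33% lower. The 6 were Vegfc, Pdgfa, Pdgfb, Pdgfc, Pdgfra and Pdgfrb, and the median log2 difference of the 9 was 1.44 beside 0.03 over all genes. On day 5 over day 4, 0 were higher (1.92% of all genes) and 1, Pdgfc, was lower (3.84%), with medians of -0.15 and 0.03. The other 8 stayed under 2-fold over this first interval with cytokines. On day 7 over day 5, 0 were higher (0.796%) and 3 were lower (5.45%), namely Vegfa, Pdgfra and Pdgfrb, with medians of -0.80 and -0.09. Averaging probe sets of a gene left 1 of the 3, Pdgfrb. From day 4 to day 7, 0 were higher (2.95%) and 4 were lower (8.61%), namely Vegfa, Pdgfa, Pdgfc and Pdgfra. Against day 1, 5 were higher on day 7 (12.2%) and 1, Vegfa, was lower (15.6%). The 5 were Vegfb, Vegfc, Pdgfa, Pdgfra and Pdgfrb. The comparisons share arrays, so they are given side by side and not as separate evidence. The members and the lists below were chosen with earlier results of these data known. Their counts beside the shares of all genes are thus descriptions only.

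The split of all genes on day 7 depended on the scaling. Of the genes called on day 7 over day 5, 12.7% were higher with the deposited scale, 31.7% with quantile normalization and 27.2% with scaling to equal medians. For the step from day 4 to day 7 the shares were 25.5%, 43.8% and 39.9%, and for day 7 against day 1 they were 43.9%, 56.3% and 53.1%. In the same order, the median of all genes on day 7 over day 5 was -0.09, 0.01 and 0.03. Measured from that median, Pdgfrb was at -1.28 and -1.23 under the other scalings, Pdgfra at -1.11 and -1.15, and Vegfb at 0.84 and 0.86. For day 7 against day 1 the median was 0, 0.14 and 0.11 in that order, and Vegfa relative to it was at -1.24 and -1.30.

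**Figure D3:**
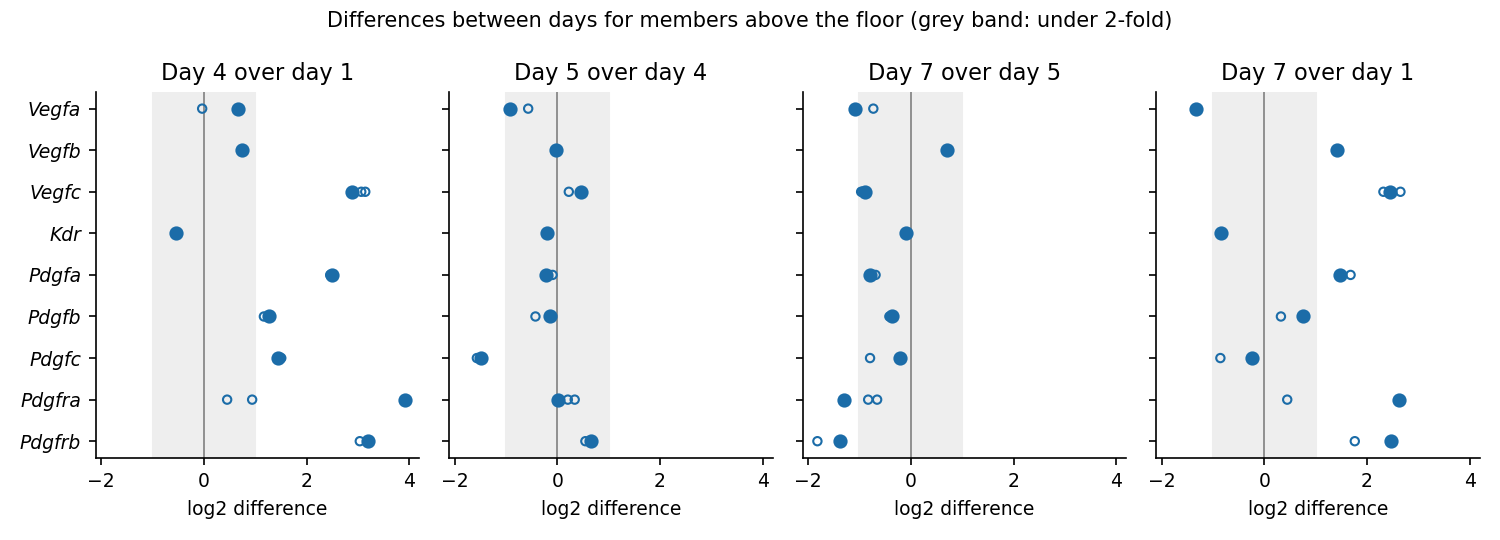
Log2 difference between days (horizontal axis) for the 9 genes that exceeded the floor (rows), with a filled point for the probe set that stands for the gene and open points for its other probe sets above the floor on either array. The grey band is under 2-fold. On day 4 over day 1 the filled points of 6 genes lie right of the band, and on day 5 over day 4 Pdgfc alone lies outside it.

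Other ligands and receptors of these systems, a list of 7 genes, were read by the same steps, and 6 were above the floor on some array. The exception was Pdgfrl, a PDGF receptor-like gene. Of the 6, 3 were higher and 0 lower on day 4 over day 1, beside 9.66% and 8.33% of all genes. On day 5 over day 4 there were 0 in either direction (1.92% and 3.84%). On day 7 over day 5, 0 were higher and 2 lower (0.796% and 5.45%). From day 4 to day 7, 0 were higher and 2 lower (2.95% and 8.61%). Day 7 against day 1 had 2 higher and 0 lower (12.2% and 15.6%). Pgf, the gene of placental growth factor, a ligand of VEGFR1, read 50.4 on day 1, 148 on day 4, 239 on day 5 and 59.0 by day 7. It was 2.94-fold higher on day 4 and then 4.05-fold lower on day 7 than on day 5, back near the level of fresh marrow.

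Nrp2 encodes neuropilin-2, a co-receptor of VEGF-C and of semaphorins. It read 765 on day 1, 3506 on day 4, 5629 on day 5 and 4833 by day 7, so that all later arrays were above fresh marrow. Day 4 was 4.58-fold and day 7 6.32-fold higher than day 1. In 3 of its 4 probe sets both differences passed 2-fold, and the fourth, much dimmer, differed by 0.62 and 0.10 on the log2 scale.

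Nrp1 encodes neuropilin-1, a co-receptor of VEGF-A. It read 1913 on day 1, 3786 on day 4, 2914 on day 5 and 3875 by day 7, and day 7 was 2.03-fold higher than day 1. Its probe sets disagreed: 3 were higher on day 7 than on day 1, by log2 differences up to 1.18, and 1 was lower by -1.56 on the same scale. Neither neuropilin had a 2-fold lower signal on day 7 than on day 5 in the probe set standing for it, where Pdgfra and Pdgfrb did.

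Flt4, the gene of VEGFR3, stayed between 43.5 and 62.5, near the floor on every array. Vegfd, a further lymphatic ligand gene, was under the floor on days 1 and 4 and read 49.6 on day 5 and 40.7 on day 7. Pdgfd, the gene of a second protease-activated PDGF, read 75.7 on day 4, 72.3 on day 5 and 32.8 by day 7. It was under the floor on day 1, so that day 4 was at least 2.33-fold higher. The other probe sets of Pdgfd were under the floor on all arrays.

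**Figure D4:**
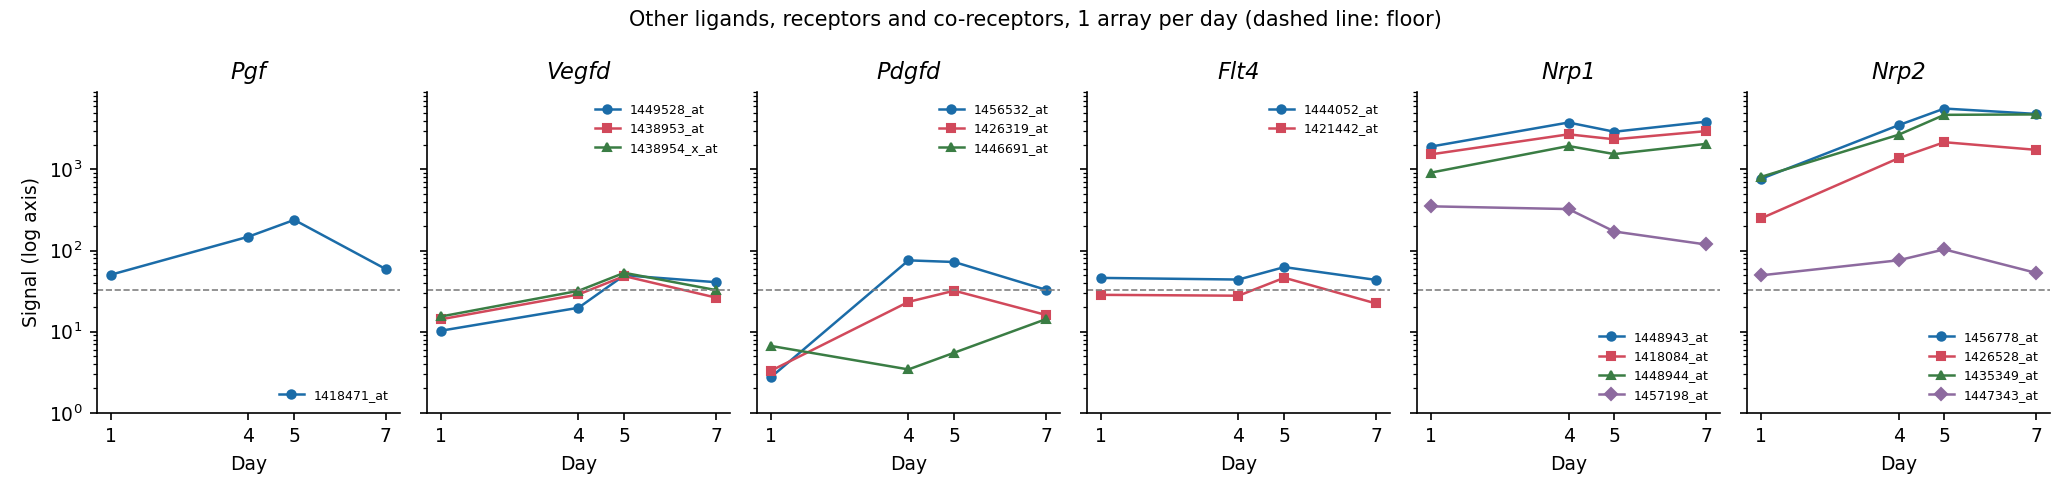
Signal of each probe set (vertical log axis, array signal units) by day (horizontal axis, days) for other ligand, receptor and co-receptor genes, with 1 array per day and a dashed line at the floor of 32.4. Pgf peaks on day 5 and is near its day 1 level on day 7, while the 3 brighter probe sets of Nrp2 stay above day 1.

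Genes whose products cleave, release or trap these ligands formed a list of 15, of which 13 were above the floor. On day 4 over day 1, 6 were higher and 1 lower, where 9.66% and 8.33% of all genes were. The step to day 5 had 2 higher and 1 lower (1.92% and 3.84%). From day 5 to day 7, 1 was higher and 4 were lower (0.796% and 5.45%). Day 7 had 1 higher and 3 lower against day 4 (2.95% and 8.61%). Against day 1 it had 5 higher and 0 lower (12.2% and 15.6%). Plau, the gene of urokinase, a protease known to activate PDGF-D, read 41.7 on day 1, 156 on day 4, 725 on day 5 and 1861 by day 7. It was 3.76-fold higher at the first step, 4.64-fold at the next and 2.57-fold at the last. Plat, the gene of tissue plasminogen activator, which activates PDGF-C, was under the floor on day 1 and read 98.4 on day 4, 216 on day 5 and 102 by day 7. It was at least 3.03-fold higher on day 4 than on day 1, 2.19-fold higher on day 5 than on day 4, and then 2.11-fold lower on day 7. Hpse, the gene of heparanase, which frees growth factors from heparan sulphate, was 3.77-fold lower on day 5 than on day 4. Ccbe1, needed for the processing of VEGF-C, was 3.82-fold lower on day 7 than on day 5, at 40.0 against 153. Ccn2, whose product binds VEGF-A, was 3.22-fold lower over that step, and Sparc, whose product binds PDGF and VEGF, 2.23-fold lower. Furin, the gene of a convertase, stayed under 2-fold at each step, with signals between 346 and 492.

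Of 39 listed genes that carry signals from these receptors, 35 had a named probe set, and each of these was above the floor on some array. On day 4 over day 1, 4 were higher and 1 lower, beside 9.66% and 8.33% of all genes, so the count higher lies near the background. The next step had 0 in either direction (1.92% and 3.84%). That from day 5 to day 7 had 0 higher and 1 lower (0.796% and 5.45%). From day 4 to day 7, 1 was higher and 4 were lower, beside 2.95% and 8.61%. Those higher on day 4 included Spry1 (4.28-fold) and Spred1 (2.94-fold), which encode feedback inhibitors of receptor signalling, and the kinase gene Src (2.77-fold). Plcg2, of phospholipase C gamma 2, was 2.07-fold lower. Day 7 against day 1 had 4 higher and 6 lower, beside 12.2% and 15.6%, with Spred1 at 6.15-fold higher and the protein kinase C gene Prkca at 5.47-fold lower. These genes serve many other receptors, among them those of M-CSF.

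Oxygen-sensing genes were read because VEGF-A is a classical target of hypoxia-inducible factors. Of the 8 pathway genes, 1 was higher and 1 lower on day 4 over day 1, beside 9.66% and 8.33% of all genes. Both counts thus lie near the background. Epas1, the gene of HIF-2 alpha, was 5.70-fold higher, and the prolyl hydroxylase gene Egln3 4.25-fold lower. Hif1a, the gene of HIF-1 alpha, had log2 differences of 0.06, -0.25 and -0.66 at the 3 steps. Of 16 measured hypoxia target genes, 3 were higher and 3 lower on day 4 over day 1, beside 9.66% and 8.33% of all genes. From day 4 to day 7, the interval in which Vegfa was 4.01-fold lower, 1 was higher and 1 lower, beside 2.95% and 8.61%. The median was 0.08 where all genes had -0.05. On day 7 over day 5, 0 were higher and 2 lower (0.796% and 5.45%). Day 7 against day 1 had 3 higher and 4 lower (12.2% and 15.6%). Counts this small among 16 genes do not show whether they differ from the background. The 2 genes called from day 4 to day 7 were Pdk1, 3.37-fold higher, and Pfkfb3, 2.63-fold lower, genes of enzymes that direct glucose metabolism. The part of oxygen in the Vegfa levels was not tested.

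Markers of the cell types that a marrow culture can hold were read beside these genes. Of 20 stromal and osteoblast marker genes with a probe set, 19 were above the floor on some array. Of these 19, 16 were higher on day 4 over day 1 and 0 lower, beside 9.66% and 8.33% of all genes. On day 7 over day 5, 0 were higher and 10 lower (0.796% and 5.45%). Their signals summed to 2694 on day 1, 32080 on day 4, 43556 on day 5 and 28611 by day 7. Bright genes weigh most in this sum, and they did not share 1 course. Col1a2 went from 9659 on day 5 to 5820 on day 7, whereas Mgp and Cxcl12 were highest on day 7, at 7415 and 5612. The median log2 difference of the 19 on day 7 over day 5 was -1.01. Postn was under the floor on all 4 arrays. Pdgfrb and Vegfc were lowest and highest on the same days as the stromal sum. Pdgfra was also lowest on day 1, but its days 4 and 5 were level. They differed by 0.02 on the log2 scale, and by -0.03 with quantile normalization. The part of the stromal markers in the levels of these genes was not tested. Of 13 mural cell markers, 11 were above the floor, and 4 were higher on day 4 and 0 lower (9.66% and 8.33%). Their sum went from 1053 on day 1 to 4449.8 on day 4, 5279 on day 5 and 4068 by day 7. It was thus also lowest on day 1 and highest on day 5. Within this list, Acta2, of smooth muscle actin, was 4.63-fold higher on day 4 (3458 against 747), Tagln at least 16.6-fold, Notch3 2.44-fold and Abcc9 2.14-fold. Acta2 made up most of the summed signal on every array, with 3746 on day 5 and 2911 by day 7. Against fresh marrow, the list had a median log2 difference of 0.48 on day 4 and 0.12 by day 7. The mural sum thus follows mainly 1 gene. Rgs5, Higd1b and Myh11 were near the floor or below it, at most 36.2, 14.1 and 17.9. The part of the mural markers in the levels of Pdgfra, Pdgfrb and Vegfc was not tested.

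Endothelial markers had 17 of 18 genes above the floor on some array and 10 on day 7. Their summed signal was 2298 on day 1, 1841 on day 4, 1439 on day 5 and 817 by day 7. Against day 1, 6 of 17 were lower and 0 higher on day 7, beside 15.6% and 12.2% of all genes. Tie1 was under the floor throughout, and Tek and Sox17 reached at most 35.9 and 33.6. The median log2 difference of the 17 on day 7 over day 1 was -0.97, and that of Kdr was -0.85. Megakaryocyte and platelet markers, whose cells store PDGF and VEGF, summed to 19698 on day 1, 24349 on day 4, 15776 on day 5 and 8551 by day 7. Pf4 made up 8027 of the sum on day 7 and was 1.07-fold below its day 1 signal there, so that 1 gene carries the sum. The median log2 difference of the list on day 7 over day 1 was -3.44. Of their 13 genes, 0 were higher or lower on day 4 over day 1, beside 9.66% and 8.33% of all genes. On day 5 over day 4, 11 were lower (3.84%), and on day 7 over day 5, 10 were lower (5.45%). The part of either list in the levels of Vegfa, Pdgfc or Kdr was not tested.

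Osteoclast markers summed to 21509 on day 1, 36250 on day 4, 55830 on day 5 and 64798 by day 7. On day 5 over day 4, 5 of 15 were higher and 0 lower, beside 1.92% and 3.84% of all genes. No ligand or receptor gene was 2-fold higher at that step. Against day 1, 11 were higher on day 7 and 1, Car2, was lower (12.2% and 15.6%). Car2 was 11.1-fold lower on day 4 than on day 1 and 3.55-fold lower on day 7. From day 4 to day 7, 5 were higher and 1 lower (2.95% and 8.61%). Vegfb was the one of the 10 genes highest on the same day as the osteoclast sum. Macrophage markers summed to 47993, 76395, 72222 and 73055 in order of days, and neutrophil markers to 127242, 75105, 41463 and 6307. On day 7 over day 5, 2 of 15 macrophage genes and 11 of 13 neutrophil genes were lower, beside 5.45% of all genes. None of either list was higher (0.796%). The cells that held each transcript cannot be read from these arrays.

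**Figure D5:**
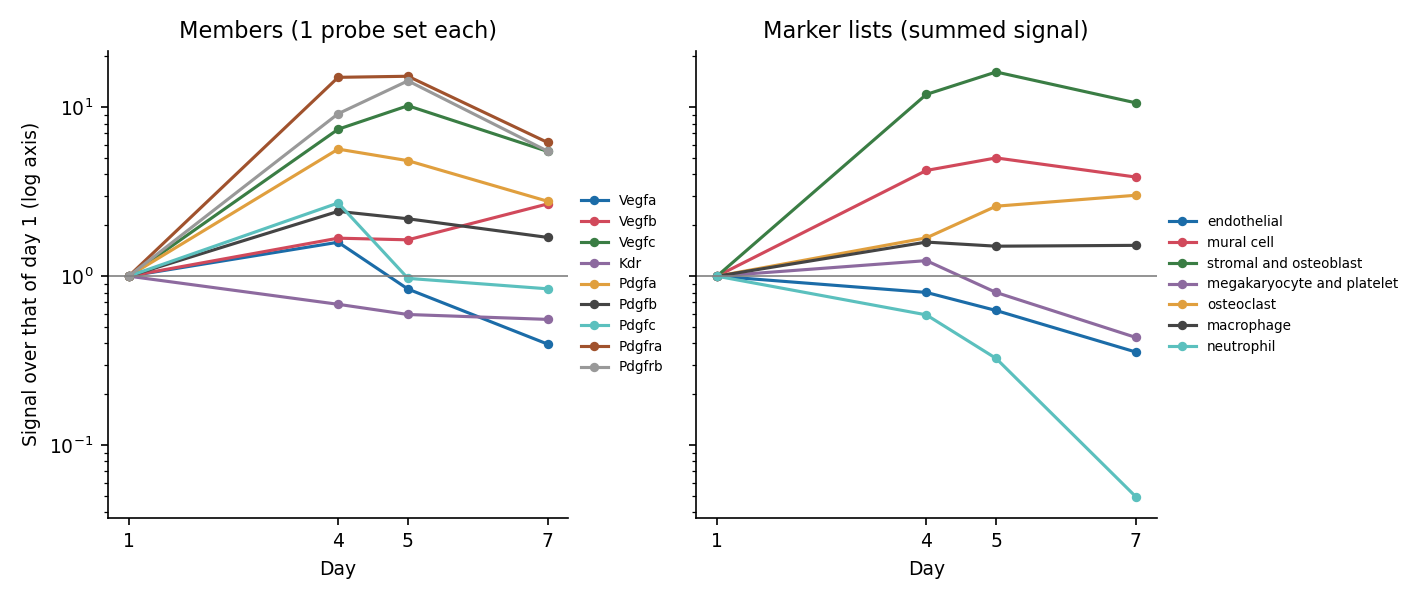
Signal over that of day 1 (vertical log axis, ratio) by day of culture (horizontal axis, days), on the left for 1 probe set of each of the 9 genes above the floor and on the right for the summed signal of each marker list, with 1 array per day. Pdgfra, Pdgfrb and Vegfc peak on day 5, as does the stromal sum at 16.2 times day 1, while the osteoclast sum is highest on day 7 at 3.01 times day 1.

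Likeness between courses was measured as the root mean square distance of log2 signals over the 4 arrays, each centred on its own mean, and is a description of 4 points. Among the 10 genes, the nearest pair was Vegfc and Pdgfrb at 0.21, followed by Pdgfra and Pdgfrb at 0.28 and Vegfc and Pdgfra at 0.39. Vegfa was nearest to Pdgfc (0.43) and far from its relative Vegfc (1.51). Among the 10033 other genes above the floor on every array, those nearest to Pdgfrb were Aebp1 (0.06), Cxcl5 (0.07) and Kirrel (0.09). Nearest to Pdgfra were Bcar1 (0.12), Fat1 (0.15) and Nid1 (0.17), and to Vegfc Gpx7 (0.07), Yap1 (0.08) and Maged1 (0.08). Pdgfa was nearest to Scarf2 (0.11), Gpm6b (0.12) and Cyp24a1 (0.13), the last a gene strongly induced by vitamin D, whose own signals were 605, 3559, 3689.6 and 1861 in order of days.

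For Vegfa the nearest were Stbd1 (0.09), Vav2 (0.10) and Sema4b (0.13), for Pdgfc Tcl1b3 (0.06), Capn3 (0.06) and Ggt5 (0.12), for Vegfb Timp2 (0.04), Mgmt (0.07) and Chrac1 (0.07), and for Pdgfb C330018D20Rik (0.03), Zfp467 (0.04) and Ift74 (0.05). How many genes came within a distance of 0.2 differed between members. There were 225 for Pdgfb and 160 for Vegfb, whose ranges were small, against 37 for Vegfc, 23 for Pdgfrb, 17 for Pdgfa, 10 for Pdgfc, 9 for Vegfa and 6 for Pdgfra. With only 4 arrays, nearness of 2 courses says no more than that the days were spaced much alike. Near courses can still order close days differently: Pdgfa was highest on day 4 and Cyp24a1 on day 5.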

How the data were processed

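Total RNA (250 ng per sample, per the labels' protocols) from 4 samples was hybridised to Affymetrix mouse arrays of 45101 probe sets, 1 array per day. The authors deposited 1 linear intensity per probe set and array, made with GCOS 1.4 and MAS5 per the submitters' processing notes. Its scaling target was not stated, and probe-level data and detection calls were not used here. Samples were grouped by the day in their titles.

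Control probe sets (64) took no part. Any signal under 32.4, the median of the other values, was raised to that floor, and differences were taken as log2 of the ratio. Where only 1 of the 2 arrays compared exceeded it, the fold is a bound ("at least"). Of 45037 probe sets, 34945 had 1 gene symbol, 932 several and 9160 none; only the first were used. Entrez numbers of 34741 were found in a RefSeq table (GRCm38.p6), which updated 0 symbols. The brightest probe set by mean log2 signal stands for a gene, and the text gives every probe set of the members. Of 18193 genes, 12438 exceeded the floor on some array and form the background. Median scaling matched the medians of probe sets above the floor on all arrays. Named genes were the members, the list of other ligands and receptors, up to 4 genes of each other list past 2-fold with the largest difference per comparison (others are named as markers under or near the floor or for their role, chosen after their values were seen), and the 3 genes nearest in course to each member above the floor on all arrays with a range of at least 2-fold. The members and the 13 lists were chosen with earlier results of these data known. The counting was tested on simulated data. Alternatives were floors at the 25th, 60th and 75th percentiles (8.43, 68.9 and 254), 16 added to each signal with no floor, quantile normalization, median scaling, the mean over probe sets, and leaving out _s_at and _x_at probe sets. Calculations used Python 3.11.15, numpy 2.4.6, pandas 2.3.3 and matplotlib 3.10.9.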

Additional observations from a re-analysis of the deposited data

How the results depend on the processing

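With 1 array per day nothing here measures variation between cultures, and signals near or under the floor limit Flt1, Flt4, Vegfd, Pdgfd, the dimmer Pdgfra probe sets, and Vegfc and Pdgfra on day 1. With a floor at the 60th percentile, day 4 over day 1 was 2.15 instead of 2.89 for Vegfc and 3.21 instead of 3.91 for Pdgfra (log2). No paired analysis was possible because each day has 1 array. Over 8 alternatives, 382 of 400 member differences stayed on their side of 2-fold, 6 of them with the sign changed. The 6 were of Kdr, Pdgfc and Pdgfra, all under 2-fold, with quantile normalization or median scaling. Of the rest, 17 dropped under 2-fold and 1 passed it (Pdgfrb, day 7 over day 4, with the mean over probe sets). Of those past 2-fold, 0 changed sign. Part of this count was fixed in advance. Flt1 was under the main floor on every array, so a floor that high or higher sets its differences to 0. The lowest floor can change only Flt1, and leaving out _s_at and _x_at probe sets only Vegfc. Averaging cannot change Vegfb or Kdr, with 1 probe set each. The 382 are thus not by themselves a measure of robustness.

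With a floor at the 75th percentile, 3 members instead of 6 were higher on day 4 over day 1, 0 instead of 1 lower on day 5 over day 4, and for day 7 against day 1 2 instead of 5 higher and 0 instead of 1 lower. Signals under that floor are set equal, so dim genes cannot differ. With the mean over probe sets, 1 member instead of 3 was lower on day 7 over day 5.

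Counts of all genes moved most with the floor. The 25th percentile gave 1878 higher and 1717 lower on day 4 over day 1 (1202 and 1036 as reported), 746 and 970 on day 5 over day 4 (239 and 477), 465 and 1354 on day 7 over day 5 (99 and 678), and 852 and 1748 on day 7 over day 4 (367 and 1071). The 75th percentile gave 408 and 491, 106 and 149, 37 and 180, and 179 and 342 in the same order, and 737 and 951 on day 7 over day 1 (1516 and 1939). The mean over probe sets gave 150 higher on day 5 over day 4 and 421 lower on day 7 over day 5. Quantile normalization gave 197 higher and 424 lower on day 7 over day 5 and 573 higher from day 4 to day 7, and median scaling 183 higher on day 7 over day 5. The cause of these shifts with scaling was not tested.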
